A study of Mus musculus with 7 samples.

Results

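The marker genes of infiltrating monocytes Ly6c2, Ccr2, Plac8, Hp and F10 were followed library by library in RNA-seq values of retinal microglia (rMG) after laser injury. They were taken from the deposited table by gene symbol, and all 5 were among its 40743 listed genes. Of these, 4 passed the filter on low values and were among the 17496 genes tested, whereas Ly6c2 did not reach it. The laser model, in which laser spots on the retina induce choroidal neovascularisation (CNV), was compared with the unlasered retina in 3 unlasered and 4 lasered libraries. All 7 libraries were labelled Irf8 KO, from mice with the genotype Irf8-/- Cx3cr1GFP/+ on a C57BL/6J background, so that both groups carried the Irf8 deletion and a green fluorescent reporter in place of 1 Cx3cr1 allele. The lasered mice were examined 7 days after laser treatment, and the unlasered mice were adult. No exact age of the sequenced Irf8 KO mice was found in the sources used here. Each library was made from cells of 3 to 4 pooled mice. The cells were sorted as CD45lowCD11b+Cx3cr1GFP/+Ly6C-Ly6G-, a gate set to leave out cells that carry the Ly6C protein. In lasered mice only the central part of the retina was used, so laser injury and retinal region cannot be told apart. The wild-type libraries were not analysed here.

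Monocytes are short-lived myeloid cells that are made in the bone marrow and circulate in the blood. Classical monocytes carry high Ly6C and the chemokine receptor CCR2, leave the marrow and enter injured tissue along its ligand CCL2, and can become macrophages or dendritic-like cells there. Non-classical monocytes carry little Ly6C, patrol the vessel wall and depend on the nuclear receptor NR4A1. Resident microglia share many genes with both, but normally make little CCR2 or Ly6C, which is why these genes are used to look for blood-derived cells in the retina. IRF8 is a transcription factor of myeloid cells that acts together with PU.1. The paper states that mice without Irf8 have few monocytes in the blood, and blood monocytes were not measured in these data.

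Ly6c2 encodes a part of the Ly6C antigen and lies beside a near copy, Ly6c1, which endothelial cells are known to express. The first 80 coding bases of each are shown because they hold most of the coding positions at which the 2 genes differ. Bases outside the coding sequence were not aligned. The capitals mark the 6 positions at which the stretches differ (GENCODE M21 transcripts Ly6c2-201 and Ly6c1-201, GRCm38, minus strand, exons within chr15:75110618-75111667 and chr15:75047460-75048511).
Ly6c2: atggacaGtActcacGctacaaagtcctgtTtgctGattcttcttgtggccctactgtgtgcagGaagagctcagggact
Ly6c1: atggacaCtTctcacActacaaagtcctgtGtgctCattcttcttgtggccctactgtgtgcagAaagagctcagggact

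Over the whole coding sequence of 396 bases the 2 genes differed at 9 positions, an identity of 97.7%. Of the 773 stretches of 50 bases in the Ly6c2 transcript, 33.0% were also found in a transcript of another gene, nearly all of them in Ly6c1, so for reads from those stretches the split of reads between the 2 genes is uncertain. For Ccr2 the share was 3.73%. Plac8, Hp and F10 shared no such stretch with another gene (0% each), and none of the 5 genes was listed jointly with an overlapping gene.

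The promoters of Plac8 and F10 are shown because the levels of these genes followed each other most closely over the libraries, with the difference between the groups left in. The letters are the 250 bases before the RefSeq start of each gene (GRCm38.p6, Plac8 at chr5:100572206-100572455 on the minus strand and F10 at chr8:13037058-13037307 on the plus strand), and the capitals mark matches to GAGGAA or its reverse complement TTCCTC, the core that PU.1 is known to bind.
Plac8: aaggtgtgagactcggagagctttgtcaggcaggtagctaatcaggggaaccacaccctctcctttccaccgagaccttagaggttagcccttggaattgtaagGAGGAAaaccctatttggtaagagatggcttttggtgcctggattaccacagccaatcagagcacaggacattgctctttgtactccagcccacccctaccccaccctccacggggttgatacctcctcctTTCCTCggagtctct
F10: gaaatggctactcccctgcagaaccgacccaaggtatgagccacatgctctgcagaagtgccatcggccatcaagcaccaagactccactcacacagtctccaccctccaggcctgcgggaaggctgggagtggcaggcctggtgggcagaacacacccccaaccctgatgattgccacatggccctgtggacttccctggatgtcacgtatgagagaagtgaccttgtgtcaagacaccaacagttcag

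The promoter table held 4 of the 5 genes, and Hp was not in it. The Plac8 promoter held 2 matches, which began 146 and 15 bases before the start, and the Ly6c2 promoter held 1, which began 108 bases before it. The promoters of Ccr2 and F10 held none, and 23.4% of all 32536 promoters of this length held at least 1. Most of the Ccr2 stretch (chr9:124101933-124102182, plus strand) lay within the gene as listed by GENCODE, which starts at base 124101950. The part of the Plac8 stretch nearest the start, with the match at 15 bases, also lay within the listed gene. On the minus strand that gene starts at base 100572245. No match was found in the 4 promoters for the core of the interferon-stimulated response element, which 2.98% of all promoters held, for the ETS-IRF composite element, which PU.1 and IRF8 can bind jointly (2.31%), or for TTGCNNAA, which C/EBP proteins bind (9.57%). Both strands were searched.

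The sort was checked against genes of the labelled cell type. The summed level of 11 microglia genes was 25679 to 30683 CPM in the unlasered group and 22965 to 31157 CPM in the lasered group, where CPM are the reads of a gene per 1000000 reads of its library. Tmem119, a membrane protein of microglia, lay between 1175 and 1739 CPM and P2ry12, a purinergic receptor, between 244 and 569 CPM, whereas the transcription factor Sall1 did not exceed 1.36 CPM. Irf8 itself had means of 509 ± 20.6 CPM (SD, n = 3) and 496 ± 57.6 CPM (n = 4) in the unlasered and lasered groups, partly in reads listed jointly with Gm20388. The label of the deletion could therefore not be checked by loss of these reads, and the files do not show which part of the gene they came from. The libraries held 20427558 to 36022954 reads in the unlasered and 37133297 to 45919042 reads in the lasered group, so depth did not overlap between the groups.

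Ly6c2 was below 1 CPM in every library. Its level was 0.392, 0.409 and 0.527 CPM in unlasered libraries 1, 2 and 3, from 8, 14 and 19 reads. It was 0.884, 0.891, 0.0436 and 0.108 CPM in lasered libraries 1 to 4, from 39, 40, 2 and 4 reads. Lasered libraries 1 and 2 thus lay above all unlasered libraries and lasered libraries 3 and 4 below all of them. The floor of 3 reads stood at 0.0653 to 0.147 CPM, and lasered library 3 was under its own. The 95% interval (Clopper-Pearson) was 0.628 to 1.21 CPM in lasered library 1 and 0.0294 to 0.276 CPM in lasered library 4, so these 2 intervals did not overlap. Such intervals and floors cover counting error only. They take reads as independent, which amplified reads are not, so the true counting error can be larger. The group means were 0.443 ± 0.0739 CPM (SD, n = 3) and 0.481 ± 0.469 CPM (n = 4), and an exact two-sided permutation test over the libraries gave p = 0.8. The smallest p that 3 against 4 libraries allow is 0.0571. Ly6c1 lay at 0.881, 1.17 and 1.30 CPM in unlasered and at 2.13, 1.63, 0.980 and 0.727 CPM in lasered libraries, so lasered libraries 1 and 2 were again the highest of their group.

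**Figure D1:**
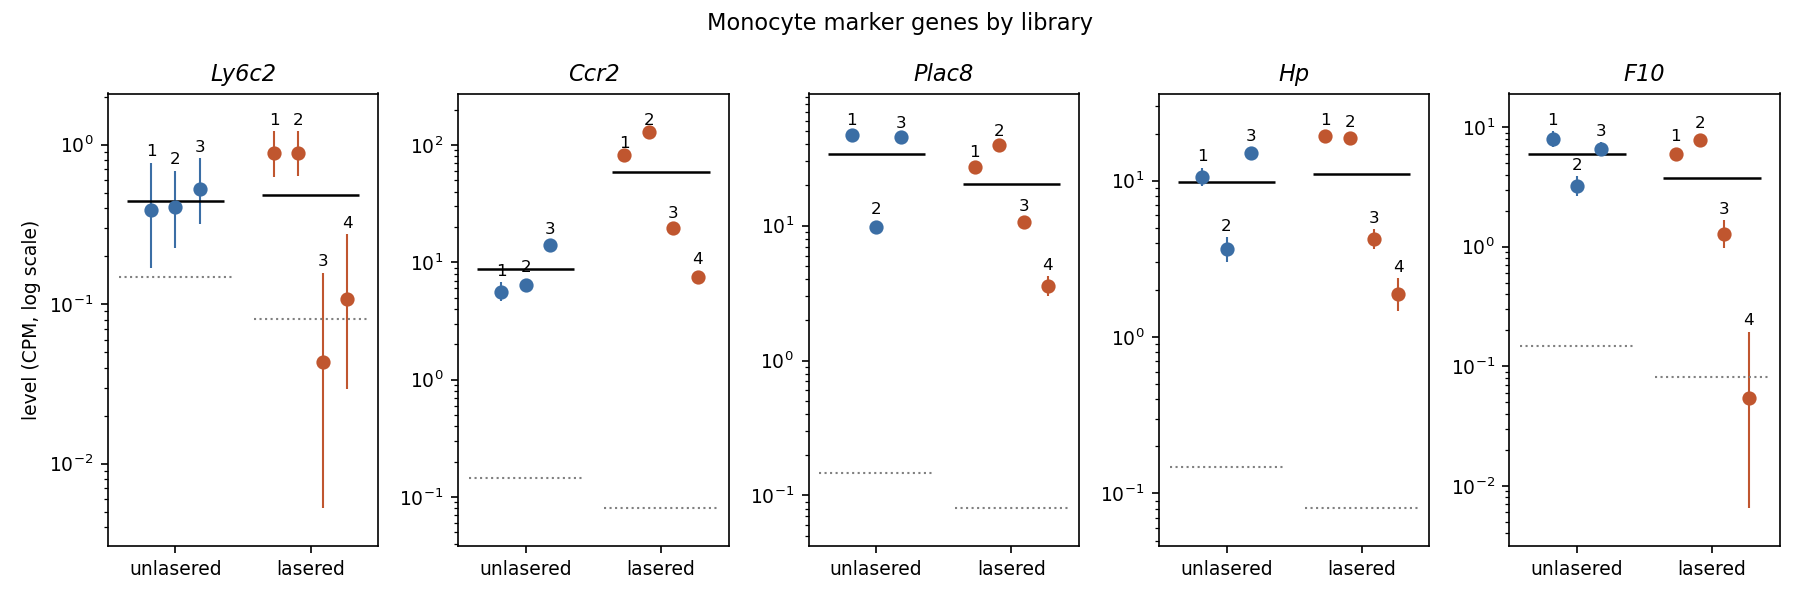
Level of each marker gene in each library in CPM on a log axis of its own, with unlasered libraries in blue and lasered libraries in orange. Points are single libraries with their number, vertical lines their 95% counting interval, black bars the group mean and dotted lines the highest floor of 3 reads in the group, and lasered libraries 1 and 2 lie above lasered libraries 3 and 4 for all 5 genes.

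Ccr2, the receptor through which monocytes follow CCL2, had the largest difference between the groups among the 5 genes. It was read at 5.63, 6.37 and 14.2 CPM in unlasered libraries 1 to 3 and at 81.5, 128, 19.7 and 7.57 CPM in lasered libraries 1 to 4. Lasered libraries 1, 2 and 3 lay above all unlasered libraries, while lasered library 4 lay within their range. The lasered mean of 59.1 ± 56.0 CPM (SD, n = 4) was 6.78 times the unlasered mean of 8.72 ± 4.73 CPM (n = 3). The spread among lasered libraries was of the same size as this difference, since their highest value was 16.9 times the lowest. On the log2(CPM + 1) scale the difference was 2.03 (SE 0.83), which did not pass the threshold of 0.05 (adjusted p = 0.186, limma with Benjamini-Hochberg adjustment). The call depended on the model. DESeq2 on the recovered reads called Ccr2 higher, with a log2 fold change of 2.76 and an adjusted p of 0.0374, and it also called a larger share of all genes, 13.3%. The quasi-likelihood test of edgeR gave nearly the same size, 2.74, with an adjusted p of 0.110. Without 1 library at a time the limma difference was between 1.43, without lasered library 2, and 2.74, without lasered library 4, and none of these fits passed (adjusted p between 0.0536 and 0.367).

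Plac8, a small cysteine-rich protein of myeloid cells, did not share this pattern. Its level was 47.0, 9.78 and 45.6 CPM in the unlasered and 27.3, 39.6, 10.6 and 3.58 CPM in the lasered libraries. Unlasered library 2 and lasered libraries 3 and 4 were low, and the groups overlapped. The means were 34.1 ± 21.1 CPM (SD, n = 3) and 20.3 ± 16.3 CPM (n = 4), a difference of -0.88 on the log2(CPM + 1) scale (SE 0.77, adjusted p = 0.553, limma).

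Hp encodes haptoglobin, an acute phase protein that binds free haemoglobin and is also made by myeloid cells. It was read at 10.6, 3.65 and 14.9 CPM in the unlasered and at 19.4, 18.6, 4.25 and 1.89 CPM in the lasered libraries. Lasered libraries 1 and 2 lay above all unlasered libraries, lasered library 4 below all of them and lasered library 3 between them. The means, 9.74 ± 5.69 CPM (SD, n = 3) and 11.04 ± 9.26 CPM (n = 4), were 1.13 times apart, while the difference on the log2(CPM + 1) scale had the other sign, -0.11 (SE 0.71, adjusted p = 0.947, limma). No direction can therefore be given for Hp.

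Hp was read together with the red cell genes because its protein binds haemoglobin. The summed level of 5 red cell genes, haemoglobin genes among them, was 84.8 CPM in lasered library 1 and at most 1.42 CPM in each of the other libraries. Lasered library 2 had nearly as much Hp, 18.6 CPM, with 0.668 CPM of red cell genes. Without lasered library 1 the difference in Hp was -0.51 on the log2(CPM + 1) scale.

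F10 encodes coagulation factor X, a vitamin K-dependent protease made chiefly in the liver. Its level was 7.93, 3.24 and 6.55 CPM in the unlasered and 5.96, 7.82, 1.28 and 0.0539 CPM in the lasered libraries, the last of these from 2 reads and so under the floor. Lasered libraries 1 and 2 were within the unlasered range and lasered libraries 3 and 4 below it. The means were 5.91 ± 2.41 CPM (SD, n = 3) and 3.78 ± 3.70 CPM (n = 4), and the difference of -0.92 on the log2(CPM + 1) scale (SE 0.68) did not pass (adjusted p = 0.472, limma).

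Of the 4 genes tested, 0 passed the threshold by limma, where 6.93% of all tested genes were called. At an unadjusted p under 0.05, 1 of the 4 passed (Ccr2), beside 22.7% of all tested genes, and edgeR, which called 7.24% of all tested genes, called 0 of the 4. The groups were free of overlap for 0 of the 5 genes, against 21.0% of the tested genes (10.4% with the lasered group higher and 10.7% with it lower). The adjusted p-values measure the spread between these pooled libraries. In bulk libraries such as these, fewer cells of a type and less RNA per cell cannot be told apart.

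**Figure D2:**
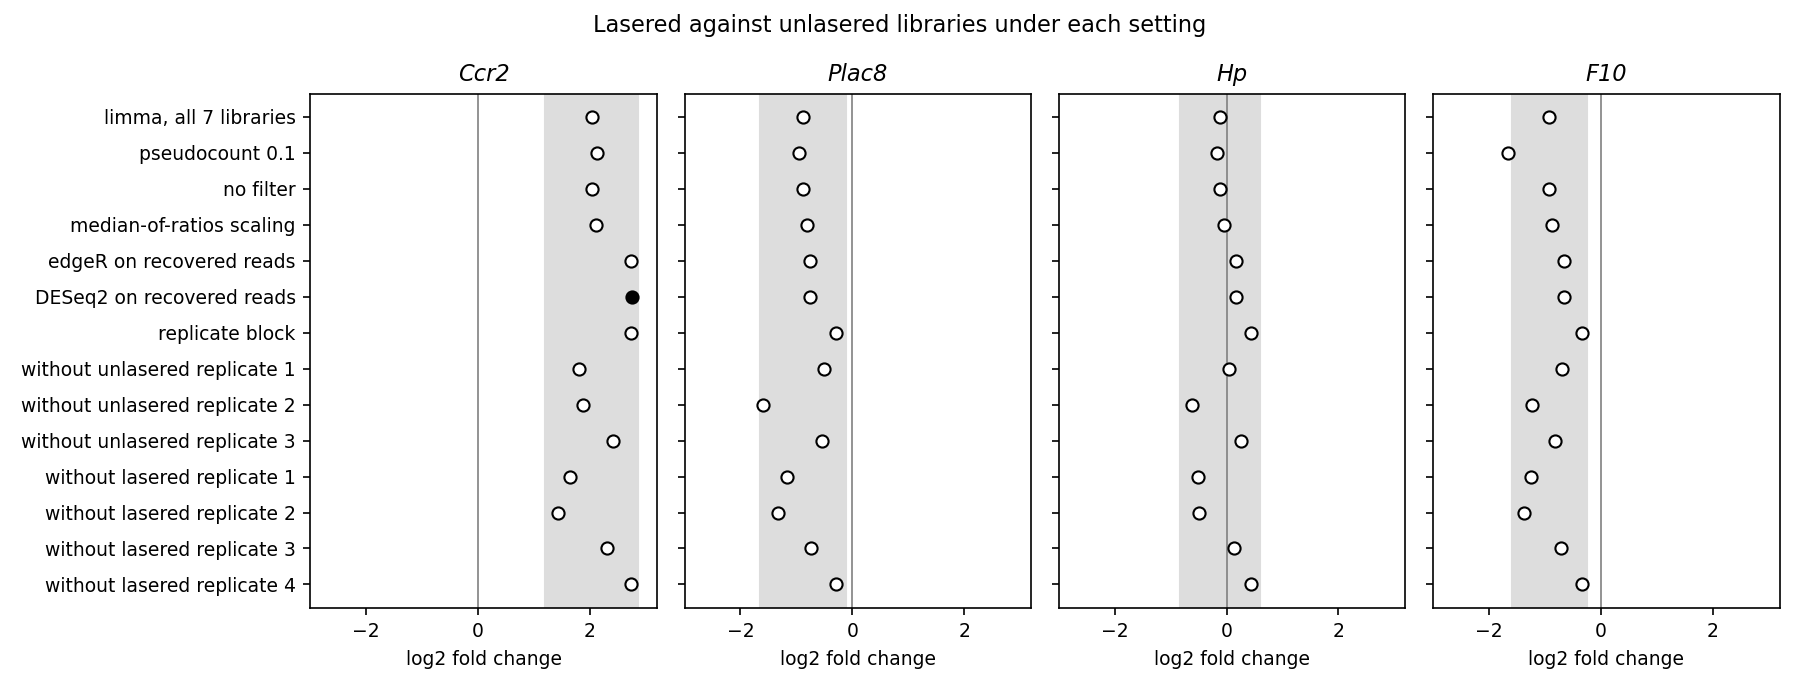
Log2 fold change of lasered against unlasered libraries for the 4 tested marker genes, with 1 row per setting, where filled circles passed an adjusted p of 0.05 and open circles did not. The grey band is the limma estimate with all 7 libraries and 1 SE to either side; Ccr2 lay above 0 in every setting shown and passed in DESeq2, Plac8 and F10 lay below 0, and Hp lay on both sides.

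The spread between libraries was wide for each of the 4 tested marker genes. In the fit of both groups the residual SD of Ccr2 was larger than that of 99.8% of the tested genes, and the shares were 99.7% for Plac8, 99.4% for Hp and 99.3% for F10. The ratio of the highest to the lowest lasered library was 16.9 for Ccr2, 11.04 for Plac8 and 10.3 for Hp. Among unlasered libraries the same ratio was 2.51 for Ccr2, 4.81 for Plac8, 4.09 for Hp and 2.45 for F10. On the log2(CPM + 1) scale the range of the lasered libraries was wider than that of 99.8% of the tested genes for Ccr2, 99.7% for Plac8 and F10 and 99.5% for Hp. The range of the unlasered libraries was wider than that of 87.8% of the tested genes for Ccr2, 98.0% for Plac8, 96.2% for Hp and 84.4% for F10. Lasered libraries 1 and 2 had a higher level than lasered libraries 3 and 4 for each of the 5 genes.

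Levels between the genes were compared as CPM per kilobase of exon, counting the exons of all annotated transcripts of a gene. In unlasered libraries Plac8 stood highest with 21.4 ± 13.3 (SD, n = 3), followed by Hp with 6.06 ± 3.55, F10 with 2.16 ± 0.882, Ccr2 with 1.29 ± 0.699 and Ly6c2 with 0.162 ± 0.0270. By these lengths the order held in each of the 3 unlasered libraries. In lasered libraries Plac8 again stood highest with 12.7 ± 10.2 (n = 4), and Ccr2 was next with 8.74 ± 8.29, ahead of Hp with 6.87 ± 5.77. By these lengths Ccr2 was the higher of the pair in 2 of the 4 lasered libraries. The exons counted came to 6.76 kb for Ccr2 and 1.61 kb for Hp. The single transcripts Ccr2-201 and Hp-201 have 2999 and 1345 bases. The place of Ccr2 relative to Hp and F10 therefore depends on the length used. F10 with 1.38 ± 1.36 and Ly6c2 with 0.176 ± 0.171 came last, and F10 was the higher of this pair in 3 of 4 libraries.

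Plac8, Hp and F10 varied together from library to library. On the log2(CPM + 1) scale over 7 libraries, Pearson's r was 0.95 between Plac8 and F10, 0.92 between Plac8 and Hp and 0.89 between Hp and F10. Ccr2 stood apart, with an r of 0.67 to Hp, 0.39 to F10 and 0.38 to Plac8. With the group means removed, however, Ccr2 had an r of 0.92 to Hp, 0.93 to F10 and 0.84 to Plac8. In that set r was 0.964 between Plac8 and Hp, 0.961 between Hp and F10 and 0.946 between Plac8 and F10. These values describe 7 points which share their library and its depth, and the second set leaves out the difference between the groups.

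The tested genes whose levels were most like each marker over the 7 libraries were ranked by the same r. For Ccr2 these were Gm5424, Samhd1, which encodes a nucleotide hydrolase that restricts retroviruses, and Gm15859, whose reads were listed jointly with Hmox2, each with an r of 0.99. For Plac8 they were Trem3, a myeloid receptor, Ear2, an eosinophil-associated ribonuclease that is also high in non-classical monocytes, and Chst3, a sulfotransferase, each with an r of 0.98. Hp was followed by C030034L19Rik with 0.99 and by Itgb7, an integrin subunit, and the transcription factor Klf4, with 0.98 each. F10 was followed by Ifitm6, an interferon-induced membrane protein of myeloid cells, and by the gene models CT485612.4 and CT009713.10, with 0.98 each.

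Of 16 genes known from classical monocytes, 14 were tested and 0 passed in either direction, beside 6.93% of all tested genes. The difference was above 0 for 7 and below 0 for 7 of them, and its median was -0.01 on the log2 scale, as was that of all tested genes. Lyz2, the lysozyme of myeloid cells and the most abundant of them, was read at 1539, 699 and 1291 CPM in the unlasered and 2080, 3091, 1007 and 547 CPM in the lasered libraries. Chil3, a chitinase-like protein of classical monocytes, was read at 6.36, 3.94 and 3.69 CPM in the unlasered and 17.7, 9.53, 1.02 and 0 CPM in the lasered libraries. Lasered libraries 1 and 2 lay above and lasered libraries 3 and 4 below all unlasered libraries for Chil3. Not all genes of the list had this pattern. Thbs1 was read at 48.8, 205 and 108 CPM in the unlasered and 119, 128, 106 and 148 CPM in the lasered libraries. Itga4 was read at 94.1, 57.9 and 209 CPM in the unlasered and 114, 85.9, 91.0 and 88.6 CPM in the lasered libraries. The summed level of the list was 2711, 3818, 1377 and 867 CPM in lasered libraries 1 to 4 and 1093 to 1974 CPM in the unlasered group. Among lasered libraries it was thus highest in the same libraries as the marker genes, but Lyz2 alone made up most of the sum in each library. The median r of the 14 genes was 0.82 to Plac8, 0.87 to Hp, 0.81 to F10 and 0.60 to Ccr2, whereas the median over all tested genes was 0.05 for Plac8. An r above 0.8 was reached by 9 of the 14 for Plac8, 11 for Hp, 10 for F10 and 2 for Ccr2. The lowest r was -0.59 to Plac8, -0.37 to Hp, -0.41 to F10 and 0.13 to Ccr2.

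Of 10 genes known from non-classical monocytes, all tested, 1 was lower and 0 higher, beside 3.07% and 3.86% of all tested genes. The difference was below 0 for 9 of them, with a median of -1.29 on the log2 scale. Their summed level overlapped between the groups, with 447, 203 and 787 CPM in the unlasered and 195 to 337 CPM in the lasered libraries. Nr4a1, on which these cells depend and which stimulated cells also induce at once, fell from 58.5 ± 32.9 CPM (SD, n = 3) to 12.7 ± 6.07 CPM (n = 4), a log2 difference of -2.10 (SE 0.41, adjusted p = 0.0231, limma). This call was lost without lasered library 3 (adjusted p = 0.0644). Treml4, a receptor of non-classical monocytes, was read at 85.2, 24.1 and 87.9 CPM in the unlasered and 32.2, 31.0, 8.04 and 9.16 CPM in the lasered libraries and did not pass (adjusted p = 0.124, limma). The median r of these 10 genes was 0.88 to Plac8 and 0.83 to F10, and it was 0.05 to Ccr2. With the group means removed it was 0.91 to Plac8, 0.82 to F10 and 0.79 to Ccr2. The list is not separate from the marker genes in these cells, since Ear2 was also among the genes most like Plac8.

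**Figure D3:**
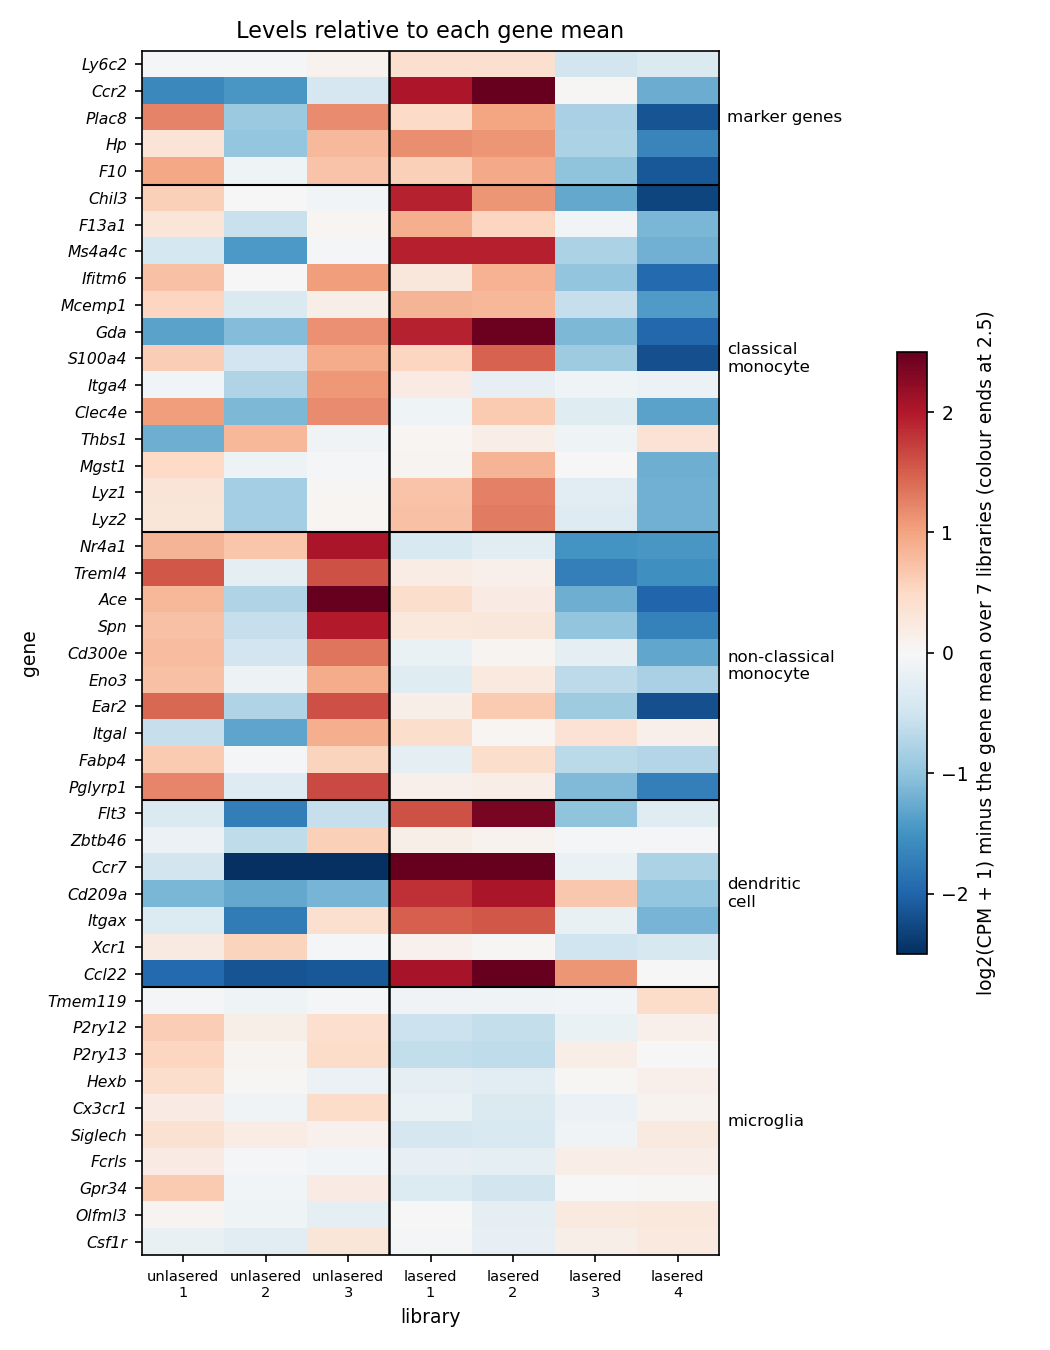
Level of each gene in each library as log2(CPM + 1) minus the mean of that gene over the 7 libraries, in red where above and in blue where below the mean, for the 5 marker genes and tested genes of 4 cell type lists. Ccr2 is highest in lasered libraries 1 and 2, as are most dendritic cell genes, while Plac8 is as high in unlasered libraries 1 and 3 as in lasered library 2, as are several non-classical monocyte genes.

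Of 8 dendritic cell genes 7 were tested, 1 was higher and 0 lower, beside 3.86% and 3.07% of all tested genes. The difference was above 0 for 6 and below 0 for 1 of them. The median r of the 7 tested dendritic cell genes to Ccr2 was 0.88, against 0.05 for all tested genes, and that to Plac8 was 0.37. With the group means removed it was 0.82 to Ccr2, while that of the classical monocyte genes was 0.89. Ccl22, a chemokine of activated dendritic cells, was read at 0.196, 0.0292 and 0.0555 CPM in the unlasered and 18.1, 36.4, 8.89 and 3.53 CPM in the lasered libraries. It was the gene of this list that passed, with a log2 difference of 3.62 (SE 0.59, adjusted p = 0.0132, limma), a size that depends on the pseudocount because the unlasered values came from 4, 1 and 2 reads. Ccr7, the receptor that guides dendritic cells to lymph nodes, was read at 74.8 and 68.5 CPM in lasered libraries 1 and 2 and at no more than 5.34 CPM in the other libraries, and it did not pass (adjusted p = 0.103, limma). Not all genes of the list had this pattern. Zbtb46 had means of 24.3 and 24.7 CPM in unlasered and lasered libraries, and Xcr1 had means of 1.84 and 1.10 CPM. The summed level of the 8 dendritic cell genes was 24.3 to 70.7 CPM in the unlasered group and 209, 237, 62.6 and 44.0 CPM in lasered libraries 1 to 4. That of the microglia genes was lowest in the same lasered libraries, 1 and 2, and their median r to Ccr2 was -0.79. The part of these lists in the level of Ccr2 was not tested.

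The ligands of CCR2 and the neighbouring receptors were next considered. Of 12 such genes 9 were tested, 3 were higher and 0 lower in lasered libraries, beside 3.86% and 3.07% of all tested genes, and the median difference was 0.32 on the log2 scale. Ccl2, the main ligand of CCR2, was read at 6.07, 5.40 and 2.97 CPM in the unlasered and 10.6, 8.22, 14.7 and 11.1 CPM in the lasered libraries, a log2 difference of 1.08 (SE 0.26, adjusted p = 0.0425, limma). Ccl12, a further ligand in mice, rose from 72.9 ± 7.77 CPM (SD, n = 3) to 137 ± 32.8 CPM (n = 4), by 0.86 on the log2 scale (SE 0.21, adjusted p = 0.0425, limma). Both were free of overlap between the groups. Ccl2 was highest in lasered library 3, while Ccl12 was as high in lasered library 2 (157.4 CPM), where Ccr2 was highest, as in lasered library 3 (157.1 CPM).

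Ccr1, a receptor for other CC chemokines on myeloid cells, rose from 88.3 ± 22.1 CPM (SD, n = 3) to 427 ± 159 CPM (n = 4), by 2.19 on the log2 scale (SE 0.35, adjusted p = 0.0115, limma). This call was kept without any 1 library (adjusted p up to 0.0461). The calls of Ccl2 and Ccl12 were each lost in 6 of the 7 fits without 1 library, with adjusted p-values up to 0.105 and 0.119, and Ccl2 passed without unlasered library 1 and Ccl12 without lasered library 4. Cx3cr1, the most abundant gene of this list and the fractalkine receptor of which 1 allele is replaced by the reporter, had means of 1716 ± 328 and 1356 ± 176 CPM in unlasered and lasered libraries and did not pass (adjusted p = 0.247, limma).

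Of 5 genes that act in CCR2 signalling and trafficking, all tested, 1 was higher and 0 lower (3.86% and 3.07% of all tested genes). Gnai2, the inhibitory G protein subunit to which chemokine receptors couple and the most abundant of these genes, rose from 722 ± 7.31 CPM (SD, n = 3) to 982 ± 102 CPM (n = 4), by 0.44 on the log2 scale (SE 0.11). Its adjusted p of 0.0498 (limma) was at the threshold, part of its reads were listed jointly with another gene, and the call was lost without any 1 library (adjusted p up to 0.139).

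In the Ly6 family of Ly6c2, 9 of 10 genes were listed, 5 were tested and 0 passed, beside 6.93% of all tested genes. The median difference was 0.13 on the log2 scale. Ly6e, the most abundant, encodes a widely expressed surface protein and had means of 2087 ± 141 CPM (SD, n = 3) and 2308 ± 204 CPM (n = 4) (adjusted p = 0.497, limma).

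Partners of F10 in the clotting cascade also held no called gene. Of 22 genes 11 were tested and 0 passed, beside 6.93% of all tested genes, with a median difference of 0.02 on the log2 scale. Pros1, the most abundant, encodes the anticoagulant protein S and had means of 224 ± 35.3 CPM (SD, n = 3) and 204 ± 39.1 CPM (n = 4) (adjusted p = 0.687, limma).

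Among 13 genes of haptoglobin function, haem scavenging and the acute phase, 11 were tested, 2 were higher and 0 lower (3.86% and 3.07% of all tested genes). Saa3, an acute phase serum amyloid that macrophages make, rose from 10.2 ± 2.76 CPM (SD, n = 3) to 118 ± 55.1 CPM (n = 4), by 3.28 on the log2 scale (SE 0.41, adjusted p = 0.0061, limma), and was called in each fit without 1 library. Lcn2, an iron-siderophore carrier of neutrophils and inflamed tissue, was read at 2.35, 0.292 and 0.305 CPM in the unlasered and 6.32, 3.43, 4.64 and 3.91 CPM in the lasered libraries (1.62 on the log2 scale, SE 0.36, adjusted p = 0.0320, limma). The call of Lcn2 was kept without unlasered library 1 and lost in the other 6 such fits (adjusted p up to 0.0864). Cp, or ceruloplasmin, the most abundant gene of the list, did not pass at 784 ± 108 and 1037 ± 148 CPM (adjusted p = 0.132, limma), and Cd163, the receptor that takes up haptoglobin-bound haemoglobin, lay at 66.5 ± 8.89 and 66.2 ± 12.6 CPM.

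Of 10 transcription factors of monocytes 9 were tested, of which Nr4a1 fell as described above and 0 rose. Of all tested genes 3.07% were lower and 3.86% higher. Spi1, which encodes PU.1, lay at 364 ± 17.1 CPM (SD, n = 3) and 337 ± 33.2 CPM (n = 4) and did not pass (adjusted p = 0.611, limma).

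Markers of other cells of the blood and retina were summed in the same way. Neutrophils carry Ly6G, and the gate was set to leave out such cells. Of 15 neutrophil genes 7 were tested, 3 were higher (Cxcr2, Mmp8 and Lcn2) and 0 lower, beside 3.86% and 3.07% of all tested genes. The summed level of 304 to 470 CPM in the unlasered and 391 to 444 CPM in the lasered group was almost all Csf3r, a growth factor receptor of myeloid cells (301 to 466 and 353 to 435 CPM). S100a8, an abundant cytoplasmic protein of neutrophils, was at 7.20, 0.0876 and 0.888 CPM in the unlasered and 1.74, 6.86, 0.283 and 0.269 CPM in the lasered libraries, and Ly6g had means of 0.0490 and 0.0170 CPM. Cxcr2, a chemokine receptor of neutrophils, was at most 0.147 CPM in unlasered libraries and 5.48, 5.03, 12.9 and 1.05 CPM in lasered libraries (2.43 on the log2 scale, SE 0.53, adjusted p = 0.0305, limma). Mmp8, neutrophil collagenase, was at most 0.0555 CPM in unlasered libraries and 2.63, 5.72, 1.72 and 0.889 CPM in lasered libraries (1.69 on the log2 scale, SE 0.38, adjusted p = 0.0337, limma). The unlasered values of both genes were at or under the floor, so the sizes depend on the pseudocount. Both calls were kept without lasered library 4 and lost in the other 6 fits without 1 library, with adjusted p-values up to 0.0846 for Cxcr2 and 0.0869 for Mmp8. Of these 2 genes, Cxcr2 was highest in lasered library 3, in which Ccr2 stood at 19.7 CPM.

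Of all lists with tested genes, rod photoreceptor genes had the widest median difference between groups. All 15 were tested and 13 fell, beside 3.07% of all tested genes, with a median difference of -3.28 on the log2 scale and summed levels of 2547, 20844 and 6161 CPM in the unlasered and 567 to 1344 CPM in the lasered libraries. Unlasered library 2 had the most rod reads and the lowest Plac8, Hp and F10 of its group. Without this library the difference in Plac8 was -1.59 and that in Ccr2 was 1.89 on the log2(CPM + 1) scale, and neither passed. Endothelial genes (0 of 5 tested called, 34.7 to 89.9 CPM summed over all 7 libraries), microglia genes (0 of 10 tested called) and lymphocyte genes (0 of 1 tested called, at most 8.96 CPM summed) held no called gene, beside 6.93% of all tested genes. Of 5 red cell genes 0 were tested. The part of these cells in the levels of the marker genes was not tested.

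**Figure D4:**
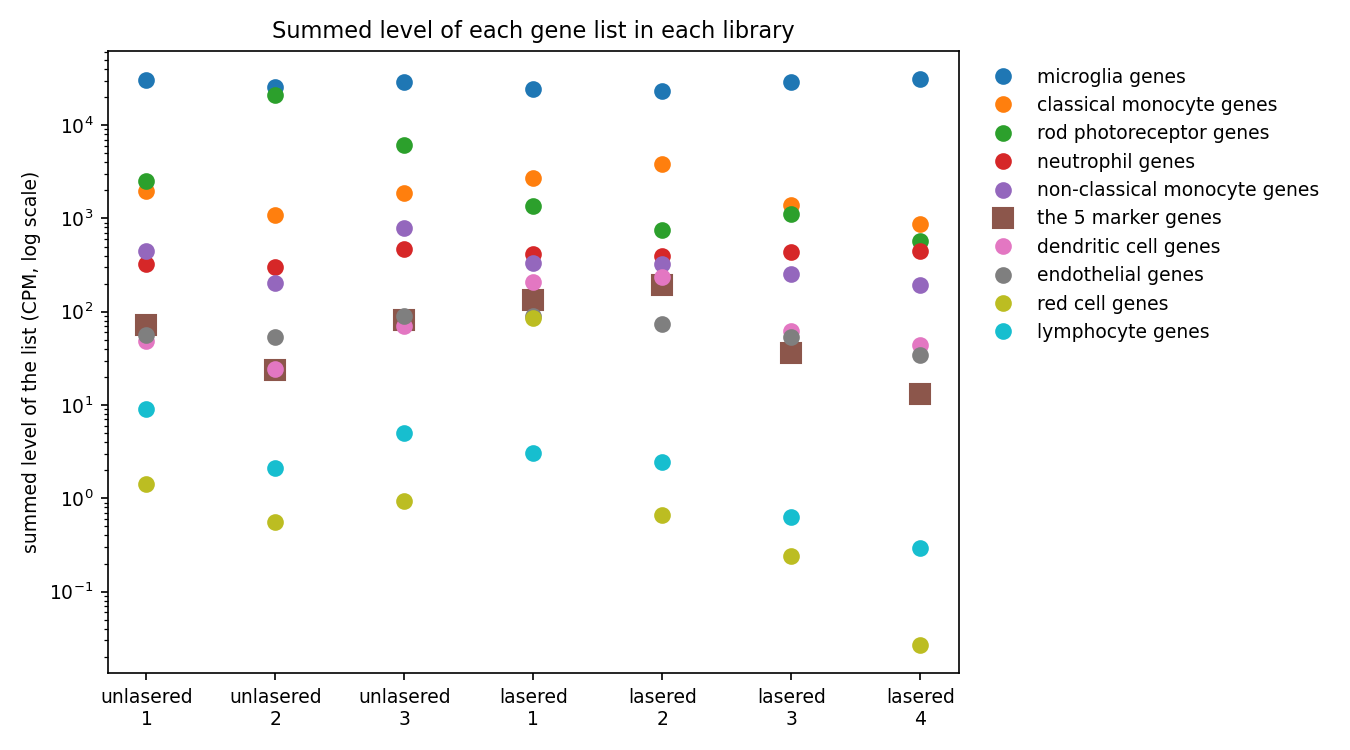
Summed level of each gene list in each library in CPM on a log axis, with 1 colour per list, the 3 unlasered libraries on the left, the 4 lasered libraries on the right and the 5 marker genes as brown squares. The sum of the 5 marker genes was 23.5 to 81.8 CPM in unlasered libraries and 135, 195, 35.9 and 13.2 CPM in lasered libraries 1 to 4, far below the microglia genes in each library.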

How the data were processed

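RNA-seq was performed on 7 libraries of sorted retinal microglia labelled Irf8 KO, 3 unlasered and 4 lasered. According to the methods and the submitters' processing notes, the authors removed adapters and duplicate reads (cutadapt, FastUniq), mapped reads with bowtie2 (GRCm38), counted them with HTSeq against annotation version 90 and normalised the values via DESeq2. The library kits do not keep the strand. The values deposited by the authors are headed TPM but are CPM: each is a whole number of reads times 1 step per library (tolerance 0.0001 CPM, 100% of values). CPM do not correct for gene length, so levels between genes were divided by the length covered by all exons of a gene (GENCODE M21). The depth was 20427558 to 45919042 reads per library.

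The 2 groups were compared on log2(CPM + 1) by limma 3.58.1 (R 4.3.3, statmod 1.5.0), using a trended prior and robust shrinkage, for the 17496 genes that reached 1 CPM in 3 or more libraries. Fold changes on this scale understate those of low genes. P-values were two-sided and adjusted with the Benjamini-Hochberg method over all tested genes at a threshold of 0.05. Ly6c2, below the filter, was compared with an exact permutation test over libraries. The fit was tested on simulated data. It called 22.0% of genes changed 2-fold, 83.9% of those changed 4-fold and 93.2% of those changed 8-fold. Of its calls in these 3 runs, 12.5%, 11.5% and 6.84% were of unchanged genes. Named were the 5 marker genes, genes of 15 lists that passed the test, the most abundant gene of each list tied to a marker gene, and the 3 genes most like each tested marker gene by Pearson's r. Treml4, Ccr7, Zbtb46, Xcr1, Chil3, Lyz2, Thbs1, Itga4, Tmem119, P2ry12, Sall1, Cd163, Spi1, Irf8, Csf3r, S100a8, Ly6g, Hmox2 and Ly6c1 come from those lists but were named in addition. All but Ly6c1 were named after their values were seen. Single values of some list genes are not reported here. The marker genes and lists were chosen with earlier results of these data known. Alternatives were a pseudocount of 0.1, no filter, median-of-ratios scaling, edgeR 4.0.16 and DESeq2 1.42.0 on the reads recovered from the CPM, a block for the replicate number, the omission of each library in turn and, for levels, medians. Further tools were matplotlib 3.10.9, scipy 1.17.1, numpy 2.4.6 and pandas 2.3.3 under Python 3.11.15.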

Additional observations from a re-analysis of the deposited data

Results flagged for a closer look

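Of 48 levels checked in the 4 lasered libraries, 1 library lay far from the other 3. The level of Ly6e was 2003 CPM in lasered library 4, the lowest, while the others lay between 2395 and 2426 CPM. Chance gives such a gap in about 1 in 20 groups, and none of the 5 marker genes had one.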

How the results depend on the processing

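Plac8 and F10 were not called and lay below 0 under all alternatives, and Ccr2 lay above 0 under all. Ccr2 passed in DESeq2 only (2.76). The difference in Ly6c2 moved from -0.02 to -0.39 on the log2 scale with a pseudocount of 0.1. That in Hp changed sign with edgeR (0.17) and DESeq2 (0.18) and ranged from -0.63 to 0.43 without 1 library at a time. For genes named beside the markers, the differences without 1 library ranged from -0.47 to 0.14 for C030034L19Rik, from -0.46 to 0.87 for Itgb7, from -0.58 to 0.27 for Klf4 and from -0.022 to 0.26 for Ly6c1. Over the alternatives for the genes checked beside the markers, 419 values kept their direction and side of the threshold, 115 lost the call in the same direction and 12 changed sign. These counts include many genes not called by limma with all 7 libraries, which had no call to lose. The 419 values therefore do not measure how stable the calls were. Over all tested genes, 676 were higher and 537 lower; the counts were 212 and 173 with no filter, 1177 and 1141 with DESeq2, and 149 to 850 and 113 to 556 without 1 library at a time. Median-of-ratios scaling gave 935 higher and 504 lower genes and moved the median difference by 0.0732. The cause of these changes was not tested. The labels number libraries 1 to 3 in both groups, but same-numbered libraries did not deviate together (r -0.183, -0.126 and -0.0234), and 0 unlasered libraries correlated best with their own number. With the shared number fitted as a replicate block, which drops lasered library 4, the difference was 0.43 for Hp, 0.14 for C030034L19Rik and 0.27 for Klf4, and 2 genes were higher and 1 lower. Few reads limit Ly6c2 in lasered libraries 3 and 4 (2 and 4 reads) and F10 in lasered library 4 (2 reads). Both libraries were deeper than each unlasered library, so these low counts did not come with low depth.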
